A study of Saccharomyces cerevisiae with 50 samples.

Results

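The 35 genes described here are nuclear genes of oxidative phosphorylation in budding yeast, taken by name from the 6524 open reading frames whose reads could be recovered. All 35 were found in both assays. They comprise 4 subunits of complex II (succinate dehydrogenase), 9 of complex III (the cytochrome bc1 complex), 7 of complex IV (cytochrome c oxidase), 13 of the ATP synthase, and 2 NADH dehydrogenases of the inner mitochondrial membrane. Every gene had a mean of at least 85 RPKM (reads scaled to library size and coding length) in both assays, so none was lost to the minimum of 10 RPKM.

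In the inner mitochondrial membrane, electrons from NADH and succinate pass through ubiquinone, complex III, cytochrome c and complex IV to oxygen, and the ATP synthase uses the proton gradient that this builds. Budding yeast has no proton-pumping complex I. Single-protein dehydrogenases take its place, Ndi1 on the matrix side and Nde1 on the outer side of the inner membrane. In glucose medium this yeast mostly ferments, and its respiratory genes are held down by glucose repression. They are activated by the Hap2/3/4/5 complex, of which Hap4 is the regulated subunit.

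The series measured ribosome footprints and mRNA in 25 SK1 strains, 1 library per assay and strain, taken from exponential, shaken YEPD cultures (2% glucose, 30 °C) at an OD600 of 0.6. The RPL class held 14 strains labelled with deletions of genes for proteins of the large (60S) ribosomal subunit. Of these, 10 lacked 1 gene (rpl7a, rpl24a, rpl24b, rpl26a, rpl26b, rpl38, rpl40a, rpl40b, rpl41a or rpl41b), 1 lacked both paralogs (rpl26a rpl26b), and 3 were double heterozygotes (rpl7a/+ rpl7b/+, rpl26a/+ rpl26b/+ and rpl40a/+ rpl40b/+). The RPS class held 9 strains labelled with deletions of genes for proteins of the small (40S) subunit. Of these, 7 were single deletions (rps0b, rps25b, rps28a, rps28b, rps29b and 2 strains labelled rps22a), 1 lacked both paralogs (rps25a rps25b), and 1 was a double heterozygote (rps22a/+ rps22b/+). The wild type was sampled as 2 libraries per assay under 1 strain number. The labels do not state the ploidy, how many clones of a strain were used, or whether cultures were separate. The p-values therefore measure the spread between strains, and the classes compare different gene deletions with each other. The series title links the distinct expression changes of small and large subunit deficiencies to growth rate, and growth rates were not among the values analysed here.

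Recovered reads (in M, reads divided by 1000000) came to 1.1 to 3.506 per RPL mRNA library, 0.962 to 1.517 per RPS mRNA library and 4.102 to 8.571 per footprint library. The mRNA libraries of the RPS strains were thus the shallower ones, and the part of depth in the results was not tested. A median of 272 mRNA reads and 1688 footprint reads lay behind each of the 35 genes in a library, the lowest being 31 mRNA reads (SDH4). Of 40 values of a homozygously deleted gene, 38 were under 5% of its median in the other strains. Both exceptions came from the library pair labelled rps22a (4662v), where RPS22A stood at 93.4% in mRNA and 111% in footprints while RPS22B stood at 24.3% and 16.5%. In the strain labelled rpl26a/+ rpl26b/+ (4654v), the footprint library had RPL26A at 99.9% and RPS0A at 1.01%, against 53.1% and 94.5% in its mRNA library. In the strain labelled rpl40a/+ rpl40b/+ (3654v), RPL40A mRNA stood at 96.4%. The strain rps25a rps25b (7463) matched its label and stood apart in the values reported here, so the counts are given with and without these 4 strains. A set of 13 haploid mating genes was low in all 3 classes, with summed mRNA levels of 21.9 to 66.4 RPKM in RPL, 15.2 to 52.4 in RPS and 26.6 to 53.4 in wild-type strains.

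The 35 genes had less mRNA in the RPS than in the RPL strains. The set was chosen with earlier results of these data known, so the counts below are no independent check of it. By limma with Benjamini-Hochberg adjustment over all 5097 genes tested, 27 of 35 were lower at an adjusted p under 0.05 and 0 were higher, against 6.77% of all genes lower and 2.9% higher. That lower to higher split of all genes depended on scaling, with 345 lower and 148 higher here but 291 and 318 after quantile normalization, under which 20 of the 35 were lower and 0 higher. All 35 differences lay below 0, against 55.4% of all genes. Their median was a log2 difference of -0.35 (all genes, -0.022), from -0.62 for ATP14 to -0.21 for COX6. In footprints, 10 of 35 were lower and 0 higher, against 4.41% of 4221 genes lower and 1.21% higher, and 34 of 35 lay below 0 with a median of -0.25 (all genes, -0.038). After quantile normalization 9 of 35 were lower and 0 higher in footprints, and the all-gene counts went from 186 lower and 51 higher to 125 and 116. The share over all genes also rose with the minimum level. At a minimum mean of 50 RPKM, 12.4% of 2677 genes were lower in mRNA and 9.53% of 2171 in footprints. Each of the 35 genes had a mean of at least 85 RPKM, so these shares come from genes nearer in level. Since the values are shares of each library's reads, a fall of these RNAs and a rise of other RNAs cannot be told apart. Each library came from a whole culture, so less RNA per cell and fewer cells that hold the RNA cannot be told apart either.

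**Figure D1:**
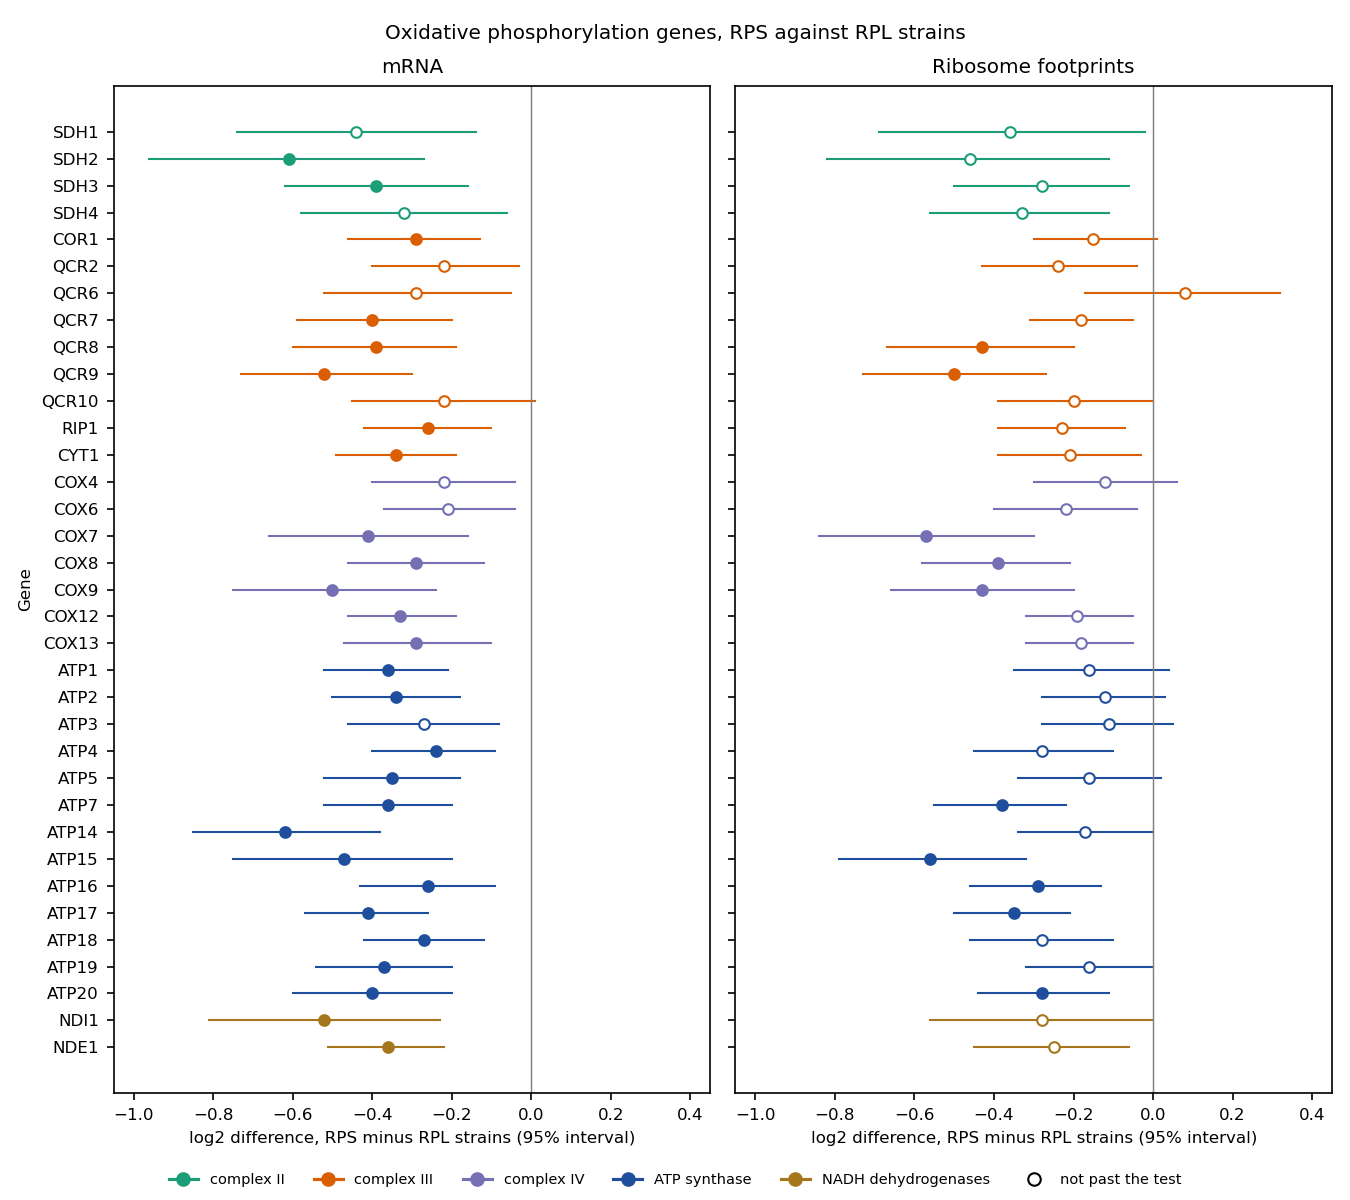
Log2 difference between RPS (n = 9) and RPL (n = 14) strains for each of the 35 genes in mRNA (left) and footprints (right). Points are limma estimates, bars their 95% intervals, colours the complexes, and filled points passed the adjusted test. In mRNA all 35 points lie left of 0 and 27 are filled, and in footprints 10 are filled and only QCR6 lies right of 0.

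The count in footprints depended on single strains. Without rps25a rps25b, 35 of 35 genes were lower in mRNA, against 10.8% of all genes in that fit, and 30 of 35 in footprints, against 10.4%, the exceptions in footprints being COX4, ATP3, QCR6, QCR10 and ATP19. Without all 4 of the strains named above, the counts were 32 and 28, against 11% and 15.8% of all genes. The counts over all genes thus rose too in these fits. Since rps25a rps25b was set apart for its values, the counts without it are descriptions. Leaving out rpl24a, rpl7a, the rps22a strain 4659 or rps0b, 1 at a time, brought the footprint count to 6. The share of all genes in those fits is not given here, so a general loss of calls cannot be told apart. Without the strain labelled rpl26a/+ rpl26b/+ it was 14, against 8.2% of all genes in that fit. Without rpl40a/+ rpl40b/+ it was 9, against 5.89%, and without rps22a (4662v) it was 7, against 3.48%.

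Complex II oxidises succinate to fumarate and passes the electrons to ubiquinone, and so also belongs to the citric acid cycle. Of its 4 genes, SDH2 and SDH3 were lower in RPS strains in mRNA, and none passed the test in footprints. SDH2 (YLL041C), which encodes the iron-sulfur subunit, stood at 94.1 to 151 RPKM in RPL strains (median 122), at 47.7 to 192 in RPS strains (median 68.8) and at 108.5 and 118 in the wild-type libraries. Its highest RPS value, from rps25a rps25b, lay above every RPL strain, while 8 of 9 RPS strains lay below the RPL median. The mRNA difference was -0.61 ± 0.17 (log2, standard error; limma adjusted p = 0.0207), and it passed in 24 of 25 removals of 1 strain, the exception being rps22a (4659). In footprints SDH2 stood at 96.5 to 164 RPKM in RPL (median 119), at 60.7 to 238 in RPS (median 73.9) and at 120.5 and 147 in wild-type strains, a difference of -0.46 ± 0.17 that did not pass the test (limma adjusted p = 0.102). SDH4 (YDR178W), a membrane anchor, had the smallest mRNA difference of the complex. Its level was 69.2 to 149 RPKM in RPL (median 102), 61.0 to 119 in RPS (median 76.3) and 83.5 and 108 in wild-type strains, and the difference of -0.32 ± 0.12 did not pass (limma adjusted p = 0.104). SDH3, the other membrane anchor, differed by -0.39 (limma adjusted p = 0.0274). SDH1, the flavoprotein subunit, differed by -0.44 and missed the threshold (limma adjusted p = 0.0517). How reads with several matches were counted is not given in the sources used here, so values of genes with a close relative in the genome, such as SDH1, are uncertain to that extent.

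Complex III passes electrons from ubiquinol to cytochrome c. Of its 9 genes, 6 were lower in RPS mRNA: the core subunit gene COR1, the Rieske iron-sulfur protein gene RIP1, the cytochrome c1 gene CYT1, and the small subunit genes QCR7, QCR8 and QCR9. Only QCR8 and QCR9 were lower in footprints as well. QCR9 (YGR183C) had the largest difference of the complex in both assays. In mRNA it stood at 760 to 1115 RPKM in RPL (median 956.5), at 433 to 1153 in RPS (median 659) and at 929.5 and 978 in wild-type strains, a difference of -0.52 ± 0.10 (limma adjusted p = 0.00315). In footprints it stood at 1625 to 3091 RPKM in RPL (median 2152), at 1168 to 2384 in RPS (median 1461) and at 2277 and 2338 in wild-type strains, a difference of -0.50 ± 0.11 (limma adjusted p = 0.0153). In both assays 8 of 9 RPS strains lay below the RPL median, rps25a rps25b being the exception. Without that strain the other RPS strains lay wholly below all 14 RPL strains in mRNA for QCR9 and for the ATP synthase gene ATP17, which 0.255% of all genes did.

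The smallest mRNA difference of complex III was that of QCR2 (YPR191W), the other core subunit. It stood at 477 to 645 RPKM in RPL (median 523), at 362.5 to 793 in RPS (median 454.5) and at 536 and 554 in wild-type strains, a difference of -0.22 ± 0.09 that did not pass (limma adjusted p = 0.127). QCR6 (YFR033C), which encodes the acidic hinge subunit, was the one gene of the 35 with differences of opposite sign. Its mRNA stood at 693 to 1236 RPKM in RPL (median 1018), at 617 to 1217 in RPS (median 813.5) and at 955 and 968 in wild-type strains, a difference of -0.29 ± 0.11 (limma adjusted p = 0.106). Its footprints stood at 454 to 908 RPKM in RPL (median 640), at 602.5 to 1065 in RPS (median 622) and at 592 and 805.5 in wild-type strains, a difference of 0.08 ± 0.12 (limma adjusted p = 0.74). Neither passed the test, and without rps25a rps25b the footprint difference was -0.0013.

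Complex IV reduces oxygen to water. Its catalytic core is encoded in mitochondria, and the 7 genes here encode the nuclear subunits that surround it. In mRNA 5 of 7 were lower in RPS strains (COX7, COX8, COX9, COX12 and COX13), and in footprints the first 3 of these were. COX9 (YDL067C) had the largest mRNA difference, standing at 413 to 731 RPKM in RPL (median 593), at 303 to 668.5 in RPS (median 384) and at 399.5 and 460 in wild-type strains, a difference of -0.50 ± 0.12 (limma adjusted p = 0.0121). One wild-type library lay below all RPL strains for this gene. Its footprint difference was -0.43 ± 0.11 (limma adjusted p = 0.0296), lost in the removal of rpl24a, rpl7a, rps22a/+ rps22b/+, rps22a (4659), rps28b or rps0b. COX7 (YMR256C) had the largest footprint difference of all 35 genes, at -0.57 ± 0.13 (limma adjusted p = 0.0192). Its footprints stood at 1259 to 2998 RPKM in RPL (median 1821), at 1091 to 1724 in RPS (median 1248) and at 1798 and 2070 in wild-type strains. All 9 RPS strains lay below the RPL median, although the ranges overlapped. Its mRNA stood at 451 to 969 RPKM in RPL (median 654), at 406 to 633 in RPS (median 482) and at 630 and 765 in wild-type strains, a difference of -0.41 ± 0.12 (limma adjusted p = 0.0319) that passed in 18 of 25 removals. Those of rpl40a, rpl7a, rps22a (4662v), rps22a/+ rps22b/+, rps29b, rps28b or rps0b ended the call. COX6 (YHR051W) had the smallest mRNA difference of the 35. It stood at 435 to 637 RPKM in RPL (median 539.5), at 403 to 708 in RPS (median 446) and at 515 and 580 in wild-type strains, and the difference of -0.21 ± 0.08 did not pass (limma adjusted p = 0.0935). COX4 did not pass either, at -0.22 in mRNA and -0.12 in footprints.

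The ATP synthase joins a soluble catalytic part (F1) to a membrane part (Fo) through a central and a peripheral stalk. Of its 13 genes 12 were lower in RPS mRNA, the exception being ATP3, the gamma subunit of the central stalk, at -0.27 (limma adjusted p = 0.0624). In footprints 5 were lower: ATP7, ATP15, ATP16, ATP17 and ATP20. ATP14 (YLR295C), which encodes the h subunit of the stalk region of Fo, had the largest mRNA difference of all 35 genes. It stood at 381 to 805 RPKM in RPL (median 555), at 257 to 553 in RPS (median 344.5) and at 554 and 595 in wild-type strains. All 9 RPS strains lay below the RPL median and the ranges overlapped, and the difference was -0.62 ± 0.11 (limma adjusted p = 0.00184). Its footprints stood at 599 to 787 RPKM in RPL (median 676), at 509 to 927 in RPS (median 554) and at 679 and 731 in wild-type strains, a difference of -0.17 ± 0.08 (limma adjusted p = 0.198).

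ATP15 (YPL271W), the epsilon subunit of the central stalk, had the largest footprint difference of the ATP synthase. Its footprints stood at 829 to 1550 RPKM in RPL (median 1285), at 664 to 1172 in RPS (median 776) and at 1187 and 1447 in wild-type strains, a difference of -0.56 ± 0.11 (limma adjusted p = 0.0129). All 9 RPS strains lay below the RPL median, and the lowest RPL value was that of the footprint library labelled rpl26a/+ rpl26b/+. Its mRNA difference was -0.47 ± 0.13 (limma adjusted p = 0.0258), lost in the removal of rps22a/+ rps22b/+, rps22a (4659), rps28b or rps0b. ATP4 (YPL078C), the b subunit of the peripheral stalk, had the smallest mRNA difference of the enzyme. It stood at 289 to 496 RPKM in RPL (median 382), at 273 to 429 in RPS (median 309) and at 415 and 433.5 in wild-type strains, a difference of -0.24 ± 0.07 (limma adjusted p = 0.039), and passed in 11 of 25 removals of 1 strain. Those of 8 RPL strains (rpl38, rpl40a/+ rpl40b/+, rpl26a rpl26b, rpl7a/+ rpl7b/+, rpl24b, rpl40a, rpl24a, rpl7a) and of every RPS strain other than rps28a, rps25b and rps25a rps25b ended the call. The catalytic subunit genes ATP1 (alpha) and ATP2 (beta) differed in mRNA by -0.36 (limma adjusted p = 0.0043) and -0.34 (limma adjusted p = 0.00758). In footprints they differed by -0.16 and -0.12, neither past the test.

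Both NADH dehydrogenase genes were lower in RPS mRNA and neither passed in footprints. NDI1 (YML120C) mRNA stood at 113 to 184 RPKM in RPL (median 138), at 58.9 to 199 in RPS (median 85.6) and at 126 and 149 in wild-type strains, a difference of -0.52 ± 0.14 (limma adjusted p = 0.0201). The highest RPS value, from rps25a rps25b, again lay above every RPL strain. NDE1 (YMR145C) mRNA stood at 424 to 642.5 RPKM in RPL (median 544), at 333 to 500 in RPS (median 402) and at 498 and 594 in wild-type strains, a difference of -0.36 ± 0.07 (limma adjusted p = 0.00253). All 9 RPS strains lay below the RPL median of NDE1. In footprints the differences were -0.28 ± 0.14 for NDI1 (limma adjusted p = 0.202) and -0.25 ± 0.10 for NDE1 (limma adjusted p = 0.103).

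All 10 genes that were lower in footprints were also lower in mRNA, 17 passed in mRNA only and 8 in neither (SDH1, SDH4, QCR2, QCR6, QCR10, COX4, COX6 and ATP3). The footprint difference was smaller in size than the mRNA difference for 24 of 35 genes. Translational efficiency, the log2 ratio of footprints to mRNA within a strain, was tested as such. Among the 35 genes 2 passed, both higher in RPS strains, against 1.12% of 4198 genes called in either direction. Of the 35 differences 24 lay above 0, with a median of 0.10 (all genes, -0.008). These values include the strain labelled rpl26a/+ rpl26b/+, whose footprint library is in doubt. Its efficiency median over the 35 genes, set against the RPL median, was -0.22, the lowest among RPL strains. Its part in these values was not tested.

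The efficiency difference of ATP14 was 0.44 ± 0.09 (limma adjusted p = 0.0206), and it passed in 25 of 25 removals of 1 strain. ATP14 footprints over mRNA came to 0.95 to 1.69 in RPL (median 1.24), to 1.55 to 2.01 in RPS (median 1.72) and to 1.22 and 1.23 in wild-type strains. Every RPS strain lay above the RPL median. That of ATP2 was 0.22 ± 0.05 (limma adjusted p = 0.0365), with ratios of 0.67 to 0.87 in RPL (median 0.79), 0.83 to 1.05 in RPS (median 0.89) and 0.72 and 0.80 in wild-type strains. ATP2 passed in 13 of 25 removals, those of rpl26a rpl26b, rpl24b, rpl40b, rpl40a, rpl24a, rpl7a, rps25a rps25b, rps22a/+ rps22b/+, rps29b, rps22a (4659), rps28b or rps0b ending the call. For QCR6, whose ratio was 0.39 to 1.13 in RPL (median 0.70) and 0.73 to 1.16 in RPS strains (median 0.88), the difference of 0.36 ± 0.13 did not pass (limma adjusted p = 0.17). COX7 had the lowest efficiency difference, -0.16 ± 0.07, which did not pass (limma adjusted p = 0.289). The footprint and mRNA libraries labelled rpl26a/+ rpl26b/+ went against each other in their labels. Without that strain ATP14 had 0.42 (limma adjusted p = 0.0144) and ATP2 0.22 (limma adjusted p = 0.0249).

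**Figure D2:**
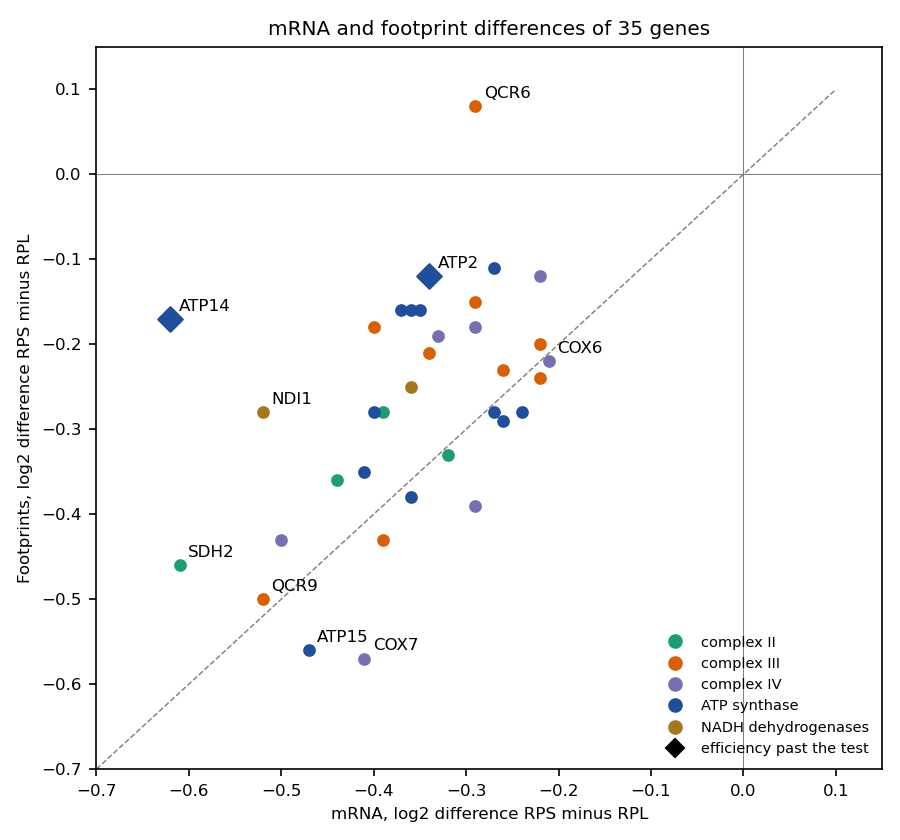
Log2 difference between RPS (n = 9) and RPL (n = 14) strains in mRNA (x axis) against that in footprints (y axis) for the 35 genes, coloured by complex. The dashed line marks equal differences, and diamonds mark ATP14 and ATP2, whose efficiency difference passed the test. ATP14 lies at -0.62 and -0.17, and 24 of 35 points show a smaller footprint than mRNA difference.

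Strain by strain, the members of the set moved together in most RPS strains. As a summary, each gene's log2 level was set against its median over the RPL strains, and the median over the 35 genes was taken. In mRNA this median was -0.53 in rps28b, -0.52 in rps22a (4662v), -0.51 in rps22a (4659), -0.49 in rps0b, -0.43 in rps29b and -0.38 in rps22a/+ rps22b/+. It was -0.22 in rps28a and -0.18 in rps25b, both within the RPL range. In the strain without both RPS25 copies it was 0.15, the highest among RPS strains, and 26 of its 35 genes lay above the RPL median. All 35 genes lay below the RPL median in 5 RPS strains, namely both rps22a strains, rps22a/+ rps22b/+, rps29b and rps0b.

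Among RPS strains the one with the highest footprint median was the same. The lowest were -0.49 in rps22a (4659) and -0.40 in rps28b, and the highest was 0.29 in rps25a rps25b. The values of rps28a and rps25b were -0.13 and -0.14. Complex II spread most: in rps25a rps25b its median was 0.59 in mRNA and 0.82 in footprints, against -0.81 in rps28b mRNA and -0.70 in rps0b footprints. With its single deletion of RPS25B, the rps25b strain had complex II medians of -0.44 in mRNA and -0.28 in footprints.

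**Figure D3:**
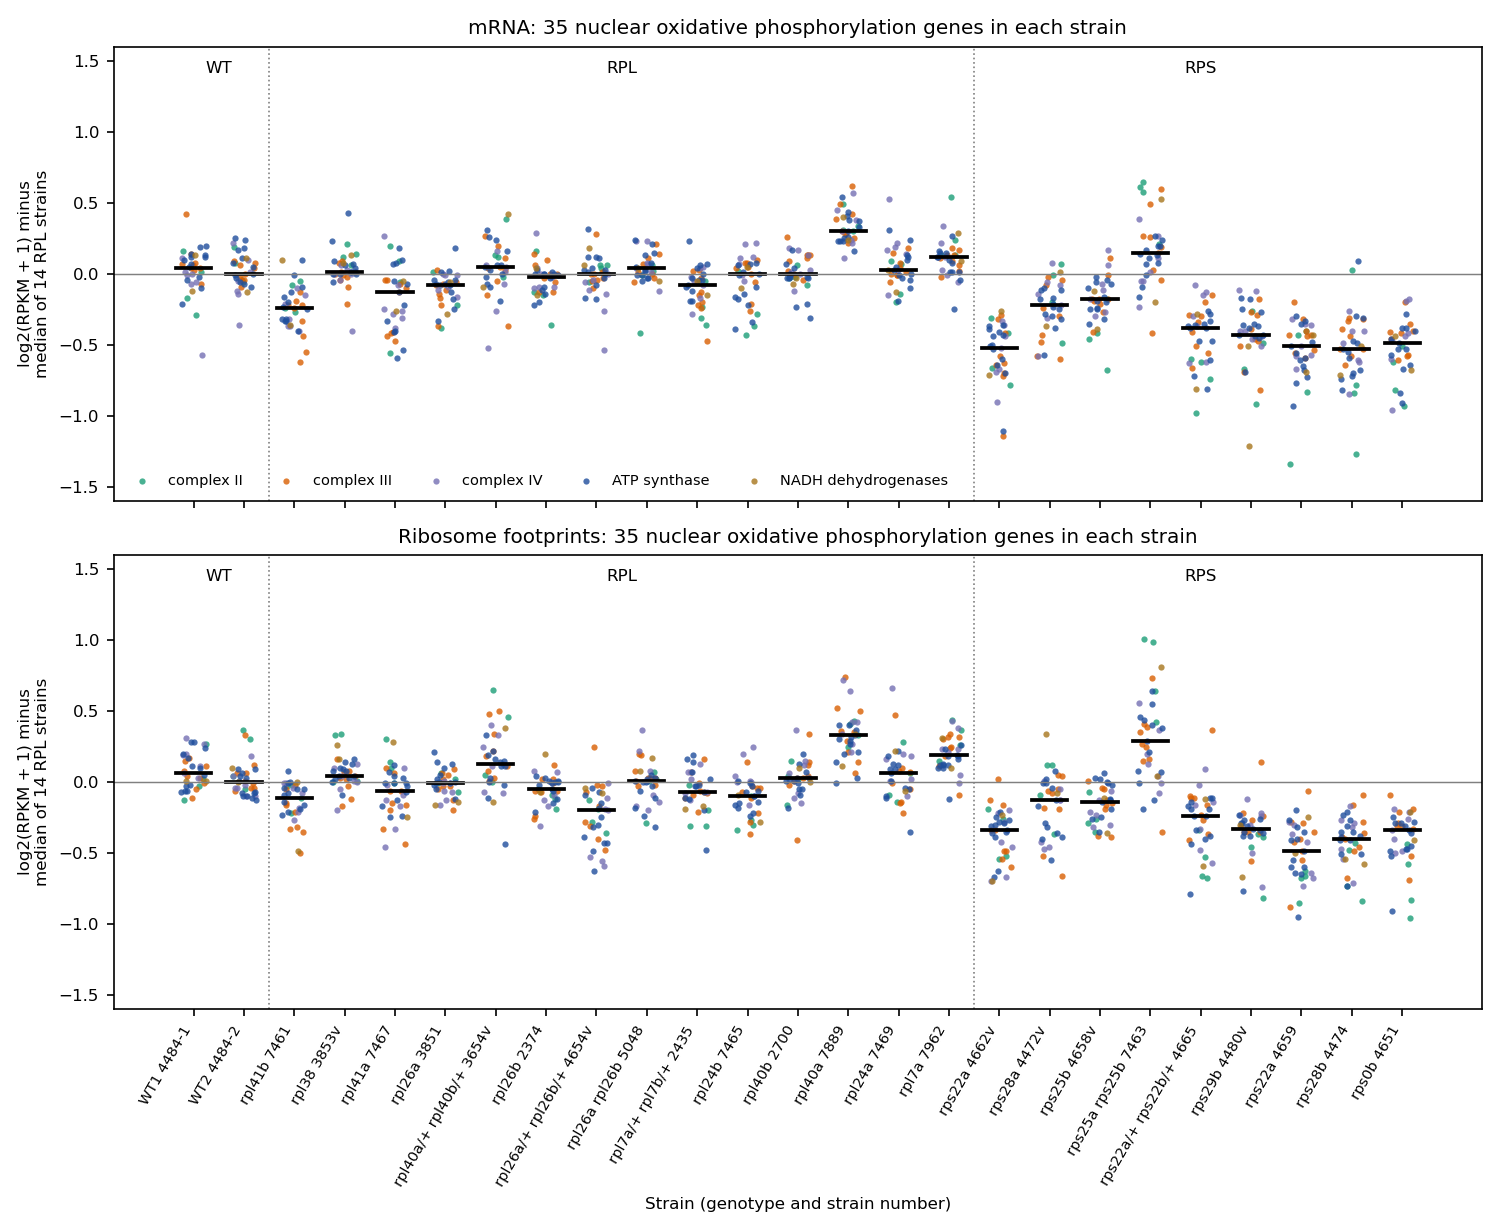
Log2(RPKM + 1) of each of the 35 genes less its median over the 14 RPL strains, in mRNA (top) and footprints (bottom), for the 25 strains in their classes. Points are genes coloured by complex, and the black bar is the median of the 35. The bars of 6 RPS strains lie at or below -0.38 in mRNA, and that of rps25a rps25b lies at 0.15.

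Among the RPL strains the mRNA median ran from -0.24 in rpl41b to 0.30 in rpl40a. In rpl40a, which lacks 1 of the paralogs for a ribosomal protein made as a ubiquitin fusion, 35 of 35 genes lay above the RPL median in mRNA and 34 of 35 in footprints (median 0.33). In rpl7a 30 of 35 lay above it in mRNA and 32 of 35 in footprints (median 0.12 and 0.19). In the other direction, 33 of 35 genes lay below it in rpl41b in both assays. In the footprint library labelled rpl26a/+ rpl26b/+ 34 of 35 lay below it, with a median of -0.20, while the mRNA library of the same strain had a median of 0. Each of these strains is 1 library per assay, so these values carry no replicate check.

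Against the 2 wild-type libraries, no gene of either table passed the adjusted test in limma in any class, and none of the 35 did in voom. At an unadjusted p under 0.05, 20 of 35 genes were lower in RPS mRNA than in the wild type, against 6.53% of all genes lower. In footprints 10 of 35 were, against 5.16%. In mRNA the median difference was -0.38, with 35 of 35 genes below 0, from -0.68 for ATP14 to -0.07 for COX9. In footprints it was -0.26. For RPL against wild type the medians were -0.03 in mRNA and -0.03 in footprints, and 0 of 35 genes had an unadjusted p under 0.05 in either assay, against 2.69% and 2.58% of all genes. These comparisons share the wild-type libraries with each other and the mutant libraries with the RPS to RPL comparison, so they are not independent of it.

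The levels differed widely between complexes. In mRNA, the median over strains ran from 98.9 RPKM for SDH4 to 1251 for ATP2, and in footprints from 78.5 for SDH1 to 1954 for COX9. Complex II was the lowest complex per length in both assays, with a median over its genes of 105 RPKM in mRNA and 138 in footprints, against 566 and 628 in complex III, 515 and 1376 in complex IV and 444 and 814 in the ATP synthase. NDI1 mRNA (median 132.5 RPKM) was near that of complex II, and NDE1 mRNA stood at a median of 3.83 times that of NDI1 (range over strains 2.38 to 6.45).

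**Figure D4:**
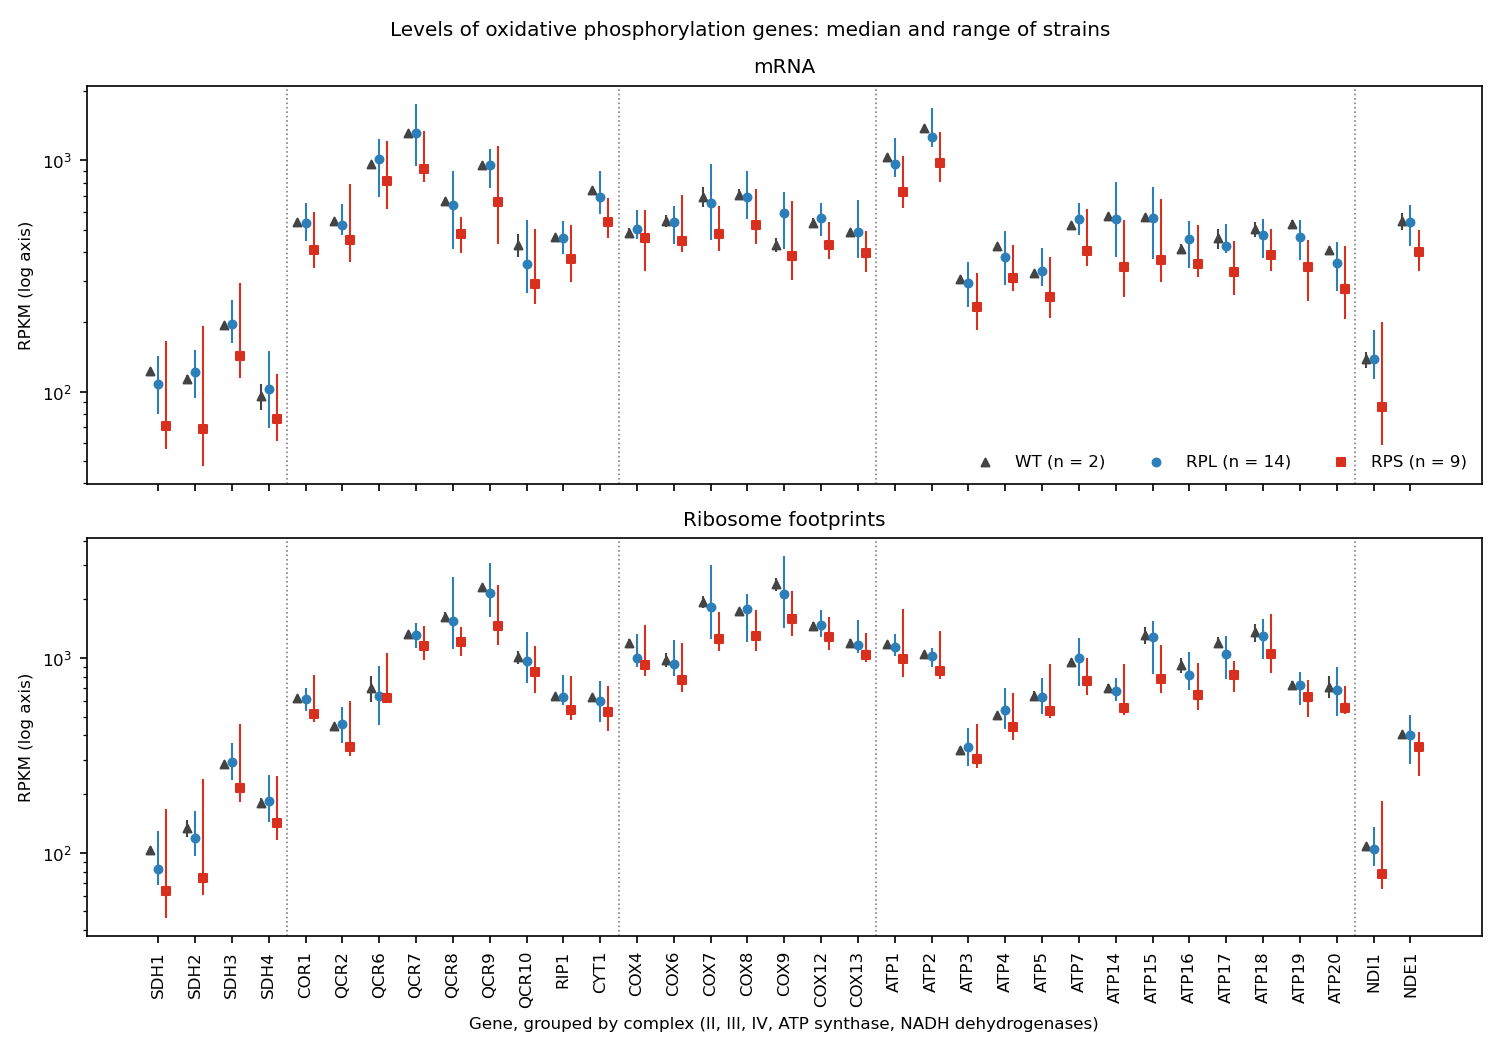
RPKM (log axis) of the 35 genes in mRNA (top) and footprints (bottom). Markers are class medians and bars the range over strains, for 2 wild-type, 14 RPL and 9 RPS strains, with dotted lines between complexes. The RPS median is the lowest of the 3 classes for 35 genes in mRNA, and complex II and NDI1 lie below the other genes.

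Ratios between subunits of a complex varied over strains to different extents. In the assembled F1 part, alpha and beta subunits occur in equal numbers and in excess over the single gamma subunit. ATP1 footprints per length were a median of 1.12 times those of ATP2 over the 25 strains (range 1.03 to 1.29), although ATP1 mRNA was 0.75 times that of ATP2 (range 0.71 to 0.81). Against ATP3, the gamma subunit, footprints were 3.32 times as high for ATP1 (range 2.87 to 4.12) and 2.87 times for ATP2 (range 2.45 to 3.66). In mRNA the ratios to ATP3 were 3.34 and 4.47. The core subunit genes of complex III, COR1 and QCR2, had an mRNA ratio of 0.98 (range 0.75 to 1.05) and a footprint ratio of 1.40 (range 1.25 to 1.64). CYT1 to RIP1 had a footprint ratio of 0.96 (range 0.82 to 1.05). For SDH1 to SDH2 it was 0.75 (range 0.56 to 0.95). The SDH1 to SDH2 ratio in mRNA had a median of 0.89 in RPL and 1.16 in RPS strains (range over all strains 0.82 to 1.27). That of COX4 to COX6 in mRNA ran from 0.74 to 1.4 over all strains. These ratios are descriptions and rest on the length term used for each gene.

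Footprints per mRNA were high for the short genes of the set. The median ratio over the 35 genes was 1.73, against 0.86 over all genes tested, and 29 of 35 lay above the latter. The 10 genes with coding sequences under 300 nt (QCR8, QCR9, QCR10, COX7, COX8, COX9, COX12, ATP15, ATP18 and ATP19) had ratios of 1.65 to 3.98, with a median of 2.6. The 9 genes of at least 900 nt had ratios of 0.78 to 1.28, with a median of 0.84. Across the 35 genes Spearman's rho between coding length and ratio was -0.82. The genes share libraries and are not independent, so this is a description. The length term, with its subtraction of 60 nt, was the same in both assays and cancels in the ratio. QCR6, at 444 nt, lay below genes of like length with a ratio of 0.74.

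**Figure D5:**
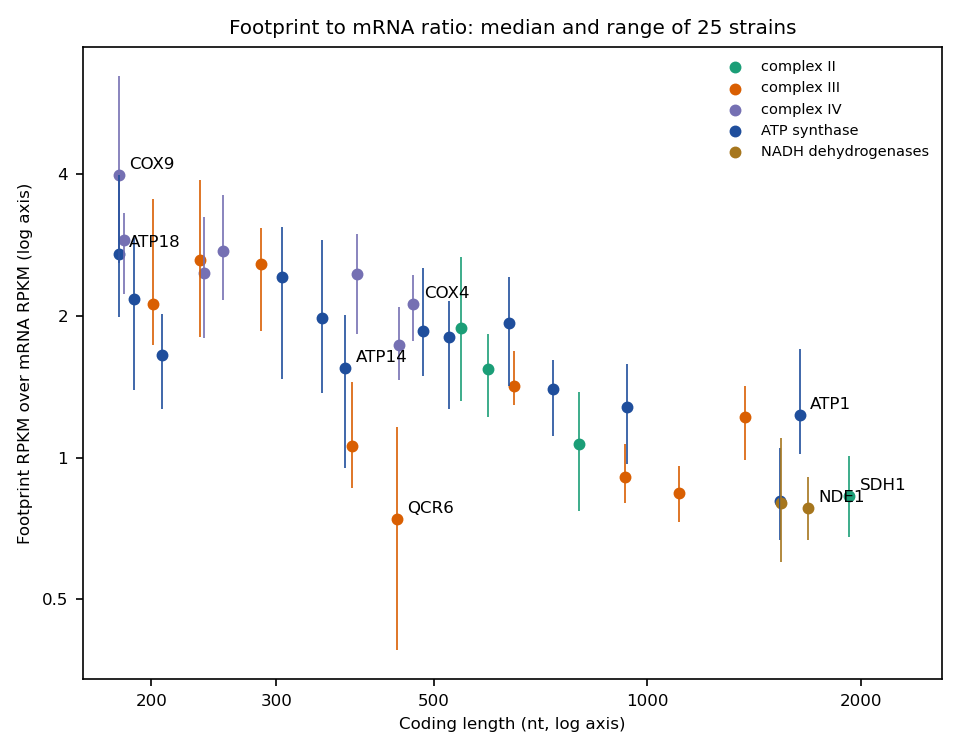
Footprint RPKM over mRNA RPKM against coding length, both on log axes, for the 35 genes coloured by complex. Points are medians and bars ranges over the 25 strains. The ratio lies between 1.65 and 3.98 for the genes under 300 nt and between 0.78 and 1.28 for those of at least 900 nt.

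With all strains in the fit, the short genes also held most of the footprint calls. Of the 10 genes under 300 nt, 6 were lower in RPS footprints, with a median difference of -0.41, and of the 9 genes of at least 900 nt, 0 were, with a median of -0.21. In mRNA the medians of these groups were -0.38 and -0.34. Spearman's rho between length and the difference was 0.35 in footprints and 0.15 in mRNA over the 35 genes, given as descriptions only. The split in footprint calls depended on rps25a rps25b. Without that strain, every gene of at least 900 nt except ATP3 was lower in footprints. So was every gene under 300 nt except QCR10 and ATP19, against 10.4% of all genes in that fit.

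Other genes of the same pathway were read from lists of their own. Of 9 further subunits, isoforms and inhibitors, 6 could be tested, and 3 were lower in both assays with 0 higher. Of all genes, 6.77% were lower in mRNA and 4.41% in footprints. INH1, the inhibitor of the ATP synthase that blocks ATP hydrolysis, had mRNA of 313 ± 48.1 RPKM in RPL and 187 ± 50.9 in RPS strains (mean ± SD, n = 14 and 9), a difference of -0.77 (limma adjusted p = 0.000416). TIM11, which encodes subunit e of the ATP synthase dimer, differed by -0.45 in mRNA and -0.47 in footprints. COX5A, the aerobic isoform of a complex IV subunit, differed by -0.28 and -0.34.

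Of 7 genes for cytochrome c and for carriers and pores of the mitochondrial membranes, 3 were lower and 1 higher in mRNA. The same 4 passed among the 6 tested in footprints. Over all genes, 6.77% were lower and 2.9% higher in mRNA, and 4.41% and 1.21% in footprints. PET9, the main ADP/ATP carrier, had mRNA of 1823 ± 160 RPKM in RPL and 1498 ± 171 in RPS strains, a difference of -0.29 (limma adjusted p = 0.0035). CYC1, the main cytochrome c gene, differed by -0.38 and POR1, the outer membrane porin, by -0.55 in mRNA (limma adjusted p = 0.00703 and 0.00585). AAC3, the ADP/ATP carrier of anaerobic growth, was higher, with mRNA of 22 ± 4.68 RPKM in RPL and 36.0 ± 8.6 in RPS strains, a difference of 0.68 (limma adjusted p = 0.00273). Its footprint difference was 0.45 (limma adjusted p = 0.0296).

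Among assembly factors of the respiratory complexes 5 of 28 were lower in mRNA, against 6.77% of all genes, and the largest differences among those 5 were in COX23 (-0.58), CBP4 (-0.56), SDH5 (-0.51) and SCO1 (-0.39). In footprints 4 of 28 were lower, against 4.41% of all genes (SDH8, PET100, COX23 and CMC1), and none was higher in either assay. Their median differences were -0.20 and -0.21. Of 7 ATP synthase assembly factors 0 passed in mRNA (median -0.23), and of 6 tested in footprints ATP11 was lower. Of 9 ubiquinone synthesis genes 0 passed in either assay, with medians of -0.07 and -0.11. Of 18 genes of mitochondrial protein import and folding 5 were lower in mRNA, against 6.77% of all genes, and 3 in footprints, against 4.41%. Among them were SSC1, the matrix Hsp70, at -0.37 and -0.20, and HSP60 at -0.25 and -0.25.

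HAP4 was the gene of the Hap activators that passed. Its mRNA stood at 199 ± 43.1 RPKM in RPL (range 125 to 291), at 133 ± 17.1 in RPS (range 102 to 151) and at 222 ± 39 in wild-type strains (n = 2). The difference was -0.55 in mRNA (limma adjusted p = 0.00347) and -0.47 in footprints (limma adjusted p = 0.0374). The other 4 (HAP1, HAP2, HAP3 and HAP5) lay between -0.14 and 0.03 in mRNA, none past the test in either assay. PUF3, whose product binds mRNAs of mitochondrial proteins, differed by -0.10 in mRNA and 0.01 in footprints, neither past the test.

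The mitochondrially encoded genes that could be tested lay on the other side of 0 in mRNA. Of 7 such genes that could be tested in mRNA, 7 had differences above 0, with a median of 0.24. Of all genes, 55.4% lay below 0. VAR1, which encodes a mitochondrial ribosomal protein, was higher (0.77, limma adjusted p = 0.0431), against 2.9% of all genes higher. Its mean was 13.8 RPKM in RPL and 24.9 in RPS strains, near the minimum of 10 RPKM. The other 6 lay between 0.05 and 0.37, none past the test. ATP6, the remaining listed gene, was below the minimum with a median of 1.05 RPKM, against 566 for ATP8. How evenly the reads of these genes were captured was not tested. None of the 8 listed genes passed the minimum in footprints, where COX1, the one with most, had 64 reads over all 25 libraries together. Both ADP/ATP carrier genes and COX5A have close paralogs, with the same limit on shared reads as above.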

How the data were processed

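Ribosome footprints and mRNA were sequenced from 25 strains (50 libraries). CASAVA, bcl2fastq 2.17 and Bowtie2 were used per the submitters' processing notes. Genome build, annotation, use of strand and handling of multiple matches were not given in the sources used here. For each assay the authors deposited a table of 6679 open reading frames headed RPKM, but its values are a signal: a read is worth a library constant times coding length less 60 nt. At the annotated length (R64 gene table, 5994 matched by locus tag), 5090 of 5812 frames with signal (87.6%) came out as whole reads in all libraries (tolerance 0.03 reads). Random gene lengths gave 25. A length that made reads whole was inferred for 1083 more, including QCR9 and QCR10; 351 were at 0, 155 were left out, and 1 line of totals per table was dropped.

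RPKM was recomputed from the recovered reads, a departure from the plan, which took the deposited columns as RPKM. Levels were tested as log2(RPKM + 1), which understates changes of low genes, for genes averaging 10 RPKM or more. The test was limma 3.58.1 in R 4.3.3 (mean-variance trend, two-sided), with all 3 classes in a single model and Benjamini-Hochberg adjustment, called under 0.05. Translational efficiency was footprints minus mRNA within a strain, with the variance trend over the mean level. The labels pair both assays by strain number; their deviations from class means correlated at a median of 0.55 over 4198 genes (0.04 in rpl26a/+ rpl26b/+, at least 0.29 in the other 24). The model was tested on simulated data. The 35 genes, lists and tests were chosen with earlier results of these data known. Full values went, in each complex, to the genes with the largest and smallest mRNA difference and the largest footprint difference, and to efficiency calls and opposite signs; further lists name at most 4 called genes each. Alternatives covered scaling, filters, pseudocounts, left-out strains, pairing and voom.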

Additional observations from a re-analysis of the deposited data

Results flagged for a closer look

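Among 60 groups of 9 RPS values (the genes given with full values, the complexes and all 35 genes, in mRNA, footprints and efficiency, as log2 deviation from the RPL median), 13 had a strain far from the others by Dixon's test at the 95% level, where chance alone gives about 1 in 20. The groups share the same 9 strains, and their genes move together, so the 13 are not separate findings and cannot be set against that rate. In each the strain was rps25a rps25b and stood highest. In mRNA its deviations were 0.59 for the complex II median, 0.60 for QCR2, 0.26 for QCR6 and 0.39 for COX6. In footprints they were 0.82 for the complex II median, 0.27 for complex III, 0.29 for the ATP synthase, 0.29 for the median of all 35 genes, 0.42 for SDH4, 0.39 for QCR2, 0.15 for QCR9, 0.44 for ATP2 and 0.29 for ATP4. This strain is 1 library per assay, and its targeted genes RPS25A and RPS25B stood at 0.36 to 1.11% of their median in other strains.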

How the results depend on the processing

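The count of 27 genes lower in RPS than RPL mRNA stayed between 18 (homozygous deletion strains and wild type only) and 35 (without rps25a rps25b). Over all genes 6.77% were lower in the main fit, 4.54% in the fit with 18 and 10.8% in the fit with 35. Leaving out 1 strain at a time gave 0 calls against the wild type, and 20 to 35 genes in mRNA, 6 to 30 in footprints and 1 to 4 in translational efficiency. Shares of all genes are given here only for some of these removals. In footprints the count of 10 became 30 without rps25a rps25b and 28 without all 4 strains set apart above, while the count over all genes went from 186 to 440 and 668. The QCR6 difference of 0.08 ran from -0.0013 (without rps25a rps25b) to 0.1138 over removals of 1 strain. In efficiency the count of 2 became 1 under median-of-ratios scaling, TMM scaling, a variance trend over the ratio itself (added after the data were seen) or without rps25a rps25b, and 4 without rpl40a/+ rpl40b/+ or with homozygous deletion strains and wild type only. With no replicate block, that is without pairing the assays by strain, it was 0, against 0 lower and 3 higher over all genes. For all genes the main fit gave 5 lower and 42 higher in efficiency. Median-of-ratios scaling gave 2 and 13, TMM scaling 2 and 33, the trend over the ratio 3 and 21. Leaving out rps25a rps25b gave 6 and 26, and leaving out rpl40a/+ rpl40b/+ gave 16 and 68. With homozygous deletion strains and wild type only there were 51 and 98. For RPS against wild type in footprints the count of 0 became 1 without all 4 strains, against 13 lower and 2 higher of 4229 genes. The cause of these shifts was not tested. The planned edgeR and DESeq2 fits on recovered reads were not run. With voom on recovered reads 28 genes were lower in mRNA and 10 in footprints, against 6.63% and 3.91% of all genes. Depth limits SDH4 most, with 31 mRNA reads in its shallowest library.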
